A study of Rattus norvegicus with 10 samples.

Results

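Lepr, Vcam1, Gnai1, Fxyd2, Bcl2 and Rabep1 are 6 of the 4803 accessions spotted on the arrays, of which 1177 could be given a gene name through RefSeq. They were chosen by their measured level over both tibiae of a rat, which was lower (Lepr, Vcam1, Gnai1, Bcl2) or higher (Fxyd2, Rabep1) in LOAD than in SHAM rats, and by a small ratio between the tibiae of each rat. The level difference and the small ratio are therefore what chose these genes, and both are given as a description, with no test. The array accessions were NM_012596 (Lepr), NM_012889 (Vcam1), NM_013145 (Gnai1), NM_017349 (Fxyd2), NM_016993 (Bcl2) and NM_019124 (Rabep1).

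The RNA came from the tibial shaft of female Wistar rats aged 12 weeks, and was taken 6 hours after a single session. In LOAD rats (n = 5) the right tibia was bent for 300 cycles at 2 Hz at a peak load setting of 60 N, which the methods say the measured force exceeded, and in SHAM rats (n = 5) the right tibia was squeezed by the pads without bending. The left tibia of every rat was the untreated contralateral control, and all rats had been anesthetized for the session. Each array held the treated tibia of a rat in one dye and its control tibia in the other, so that rat and array cannot be told apart: a level shared by both tibiae of a rat is also a level shared by both channels of an array. For SHAM 1 a label field reads LOAD while its title and description read SHAM, and it was counted as SHAM.

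As background, the members act at different places in a cell. The leptin receptor, encoded by Lepr, binds the adipocyte hormone leptin and signals through JAK2 and STAT3, and in bone marrow it marks stromal cells that can form bone and fat. Vcam1 is a cell surface adhesion molecule that holds leukocytes through the integrin VLA-4, on activated endothelium and on marrow stromal cells. Gnai1 is an inhibitory G protein alpha subunit, which lowers adenylyl cyclase activity below hormone receptors. Fxyd2 is the gamma subunit that tunes the Na,K-ATPase and is best known from kidney tubules. Bcl2 keeps mitochondria from releasing cytochrome c and so delays apoptosis, and Rabep1 (rabaptin-5) binds active Rab5 and Rab4 on early endosomes.

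The oligonucleotides on the array were not among the sequences used here, so which part of each transcript was read is not known. A promoter window from RefSeq (GRCr8) matched 4 of the 6 genes, and Fxyd2 and Rabep1 had no entry. The 250 bases before the start of 3 of them are shown. Vcam1 is shown because its promoter is a textbook example of paired kappaB sites and a TATA box, and Gnai1 and Bcl2 because their levels followed each other across rats. Lepr and Gnai1 did so as closely, with r = 0.91 for both pairs. Most LOAD values of Gnai1 and Bcl2 were not above background. Vcam1 lies at chr2:206742784-206743033 on the minus strand, Gnai1 at chr4:17705811-17706060 on the plus strand and Bcl2 at chr13:23366901-23367150 on the minus strand. Capitals mark 3 motifs searched on both strands. The kappaB motif (GGGNTT) begins the known Vcam1 sites and is marked there, the TATA motif (TATAAA) is marked in Vcam1 and Bcl2, and the GC box (GGGCGG) is marked in Gnai1.
Vcam1: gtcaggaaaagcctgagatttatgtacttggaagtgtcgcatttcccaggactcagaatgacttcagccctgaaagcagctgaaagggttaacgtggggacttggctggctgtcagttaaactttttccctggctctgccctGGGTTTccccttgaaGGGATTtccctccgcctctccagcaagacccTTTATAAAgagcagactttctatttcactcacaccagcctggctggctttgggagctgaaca
Gnai1: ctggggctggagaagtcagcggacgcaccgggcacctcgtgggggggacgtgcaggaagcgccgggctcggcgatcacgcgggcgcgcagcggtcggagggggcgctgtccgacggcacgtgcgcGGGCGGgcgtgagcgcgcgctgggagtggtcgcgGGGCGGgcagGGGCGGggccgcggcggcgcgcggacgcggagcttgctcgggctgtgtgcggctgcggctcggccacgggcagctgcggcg
Bcl2: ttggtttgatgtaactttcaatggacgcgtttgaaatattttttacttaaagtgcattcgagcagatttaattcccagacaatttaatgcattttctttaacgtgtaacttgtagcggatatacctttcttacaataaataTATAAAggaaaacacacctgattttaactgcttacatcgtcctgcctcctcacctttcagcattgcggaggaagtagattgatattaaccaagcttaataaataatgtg
The kappaB motif occurred at 2 places in the Vcam1 window, which begin 108 and 93 bases before the start. The TATA motif occurred there at 2 overlapping places on opposite strands, which begin 62 and 60 bases before the start. The kappaB motif, short as it is, was present in 41% of all 33469 windows of this length and the TATA motif in 12.9%. The Gnai1 window had 45 CpG dinucleotides and the GC box at 3 places. The Bcl2 window had 7 CpG dinucleotides, no GC box and the TATA motif at 1 place, which begins 109 bases before the start. The GC box was present in 30.5% of all windows and the median window had 5 CpG dinucleotides. The Lepr window also had 5, and none of the 3 motifs. These letters are a description and show no binding, and Gnai1 and Bcl2 had none of the 3 motifs in common.

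All levels below are log2 spot intensities after normalization within and between arrays, and a difference of 1 is a doubling of intensity. Levels are compared between rats within a gene, never between genes. The scanner software gave each channel a probability that the spot carried signal, and a channel under 0.5 is called not above background. Before normalization the median log2 intensity was 7.14 to 8.86 on LOAD arrays and 8.08 to 9.29 on SHAM arrays. Signal in both channels was present at 52.4% to 81.6% of spots on LOAD arrays and at 68.9% to 76.6% on SHAM arrays. Apart from LOAD 3, which had the 81.6%, every LOAD array had fewer spots with signal than every SHAM array. That share was 68.0% on LOAD 1, 63.6% on LOAD 2, 52.4% on LOAD 4 and 61.0% on LOAD 5.

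Lepr was the only member for which all 10 LOAD tibiae, treated and control, lay below all 10 SHAM tibiae, as 0.0894% of the 4472 accessions with a value on every array did. In LOAD rats the level in the right (treated) and left (control) tibia was 7.43 and 7.33 in LOAD 1, 6.28 and 5.97 in LOAD 2, 8.30 and 8.21 in LOAD 3, 8.13 and 7.55 in LOAD 4, and 6.97 and 7.22 in LOAD 5. In SHAM rats it was 8.53 and 8.34, 8.32 and 8.94, 8.32 and 8.53, 8.32 and 8.52, and 8.42 and 8.42 in SHAM 1 to SHAM 5. The SHAM rats lay close together and the LOAD rats were spread widely, with LOAD 3 just under the SHAM range and LOAD 2 far below it. Over both tibiae the level was 7.34 ± 0.81 (SD, n = 5) in LOAD and 8.47 ± 0.09 (SD, n = 5) in SHAM, a difference of -1.13 (SE 0.32) or 2.18-fold. Signal was above background in 10 of 10 SHAM channels but in only 5 of 10 LOAD channels, both of LOAD 1 and LOAD 3 and the treated one of LOAD 4, so the lowest LOAD levels are uncertain in size. In RNA of whole shafts, fewer cells that express a gene cannot be told apart from less RNA per cell, for this and every other member.

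Vcam1 was above background in all 20 channels. The right and left levels were 10.14 and 9.89 in LOAD 1, 11.12 and 11.01 in LOAD 2, 10.90 and 10.76 in LOAD 3, 11.05 and 10.94 in LOAD 4, and 10.49 and 10.63 in LOAD 5. In SHAM 1 to SHAM 5 they were 11.30 and 11.41, 11.70 and 11.66, 11.37 and 11.58, 11.81 and 11.59, and 10.78 and 10.97. The groups overlapped through SHAM 5, whose level fell inside the LOAD range, while the other 4 SHAM rats lay above every LOAD rat. The level was 10.69 ± 0.43 (SD, n = 5) in LOAD and 11.42 ± 0.33 (SD, n = 5) in SHAM, a difference of -0.72 (SE 0.23) or 1.65-fold.

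For Gnai1 the right and left levels were 6.53 and 6.31 in LOAD 1, 6.005 and 5.73 in LOAD 2, 7.14 and 6.94 in LOAD 3, 6.73 and 6.31 in LOAD 4, and 6.14 and 6.45 in LOAD 5. In SHAM 1 to SHAM 5 they were 7.15 and 7.07, 7.26 and 7.34, 7.89 and 7.49, 6.88 and 7.20, and 6.85 and 6.95. LOAD 3 reached the lower SHAM rats, and the other 4 LOAD rats lay below every SHAM rat. The level was 6.43 ± 0.42 (SD, n = 5) in LOAD and 7.21 ± 0.31 (SD, n = 5) in SHAM, a difference of -0.78 (SE 0.22). All 10 SHAM channels were above background, but in LOAD only the 2 channels of LOAD 3 were, so the level was measured in 1 of 5 LOAD rats, the size of the difference is uncertain and no fold is given.

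Bcl2 had a similar layout. The right and left levels were 6.57 and 6.53 in LOAD 1, 6.33 and 6.14 in LOAD 2, 6.51 and 6.88 in LOAD 3, 6.30 and 6.20 in LOAD 4, and 5.77 and 6.12 in LOAD 5. In SHAM 1 to SHAM 5 they were 7.04 and 6.92, 6.999 and 7.29, 7.34 and 7.36, 6.86 and 6.96, and 7.01 and 6.76. Averaged over both tibiae every LOAD rat lay below every SHAM rat, although the left tibia of LOAD 3 lay above the lowest SHAM tibiae. The level was 6.33 ± 0.29 (SD, n = 5) in LOAD and 7.05 ± 0.19 (SD, n = 5) in SHAM, a difference of -0.72 (SE 0.17). Above background were 8 of 10 SHAM channels, all but those of SHAM 4, and 2 of 10 LOAD channels, both of LOAD 3, so the size of the difference is uncertain and no fold is given. The LOAD array with the most spots above background was thus the one on which Lepr, Gnai1 and Bcl2 were highest among LOAD rats, and the part of array quality in these 3 differences was not tested.

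Fxyd2 had a higher mean in LOAD, with the large values in 3 of the 5 rats. The right and left levels were 10.82 and 10.82 in LOAD 1, 8.86 and 9.33 in LOAD 2, 7.27 and 7.32 in LOAD 3, 10.16 and 10.55 in LOAD 4, and 7.82 and 7.91 in LOAD 5. In SHAM 1 to SHAM 5 they were 7.58 and 7.66, 7.22 and 6.76, 7.14 and 7.13, 7.43 and 7.78, and 7.62 and 7.70. LOAD 1, LOAD 2 and LOAD 4 lay above every SHAM rat, LOAD 5 lay just above the highest SHAM rat, and LOAD 3 lay inside the SHAM range. The level was 9.09 ± 1.53 (SD, n = 5) in LOAD and 7.40 ± 0.31 (SD, n = 5) in SHAM, a difference of 1.68 (SE 0.57) or 3.21-fold. All 10 LOAD channels and 9 of 10 SHAM channels were above background, some of them narrowly. The signal probabilities were 0.53 and 0.61 on LOAD 4, 0.59 in both channels of SHAM 1, and 0.55 and 0.54 on SHAM 3. On LOAD 1 they were 0.91 in both channels. The software's confidence in the spot, which runs from 0 to 1, was 0.41 on LOAD 1 and 0.37 on LOAD 4, the arrays with the highest levels, and 0.45 to 0.70 on the other 8.

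Rabep1 was above background in none of the 20 channels, with signal probabilities of at most 0.28, so no fold is given. Its right and left values were 5.44 and 5.51 in LOAD 1, 5.24 and 5.19 in LOAD 2, 6.13 and 5.70 in LOAD 3, 6.29 and 6.60 in LOAD 4, and 7.46 and 7.25 in LOAD 5. In SHAM 1 to SHAM 5 they were 5.00 and 4.90, 5.21 and 5.01, 5.17 and 5.19, 4.98 and 4.93, and 5.37 and 5.23. LOAD 5 and LOAD 4 stood highest, and LOAD 2 lay among the SHAM rats. The mean was 6.08 ± 0.85 (SD, n = 5) in LOAD and 5.10 ± 0.15 (SD, n = 5) in SHAM. Rabep1 was thus highest in LOAD 5 and Fxyd2 in LOAD 1.

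**Figure D1:**
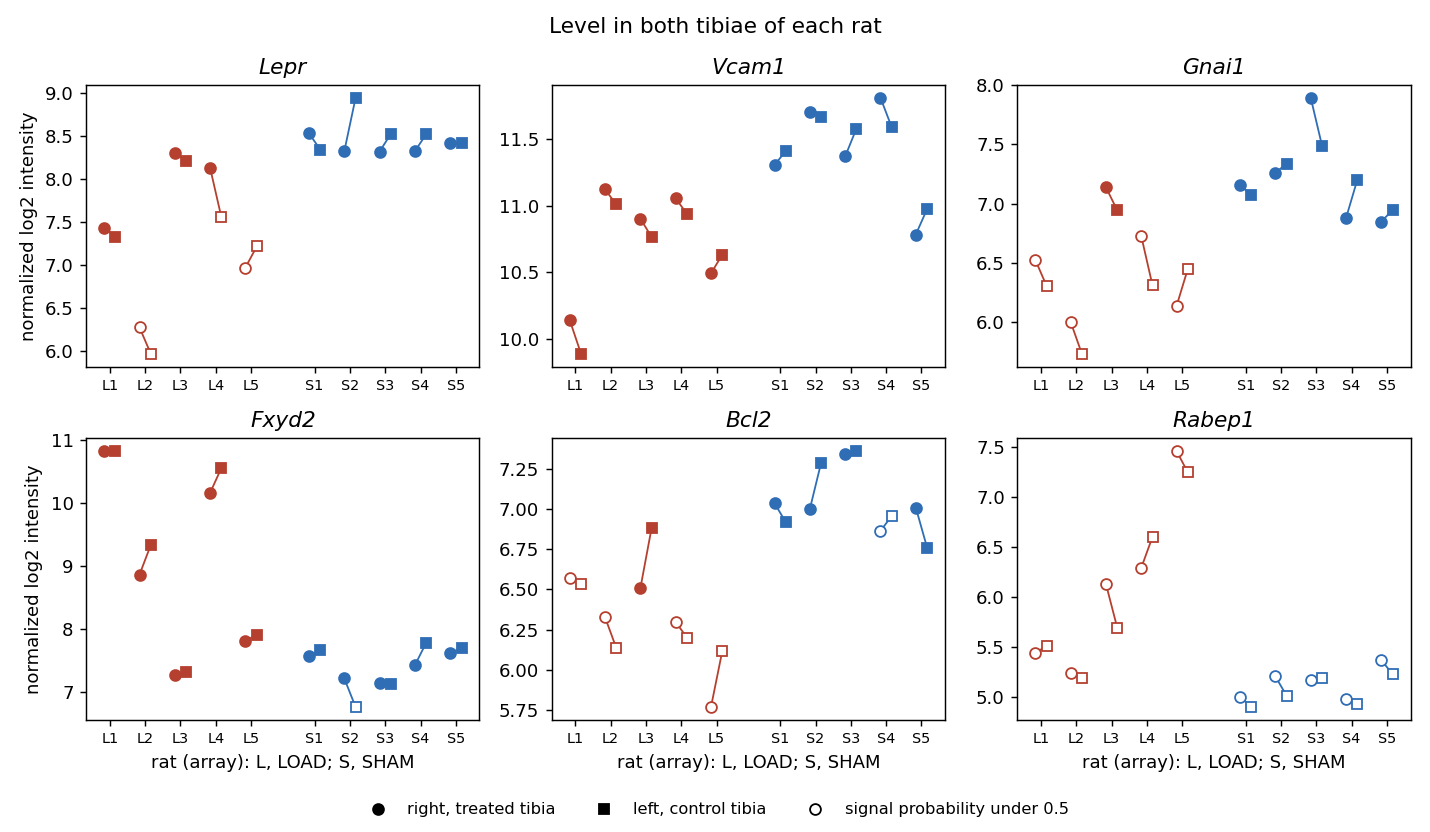
Normalized log2 intensity (vertical axis, its own range for each gene) of the right treated tibia (circles) and left control tibia (squares) of each rat, with LOAD rats L1 to L5 in red and SHAM rats S1 to S5 in blue. Lines join the tibiae of 1 rat, open symbols are channels with a signal probability under 0.5, and within groups the tibiae of a rat lie close together beside the distance between rats for Fxyd2, Rabep1 and Vcam1, less so for Gnai1 and Bcl2.

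Ranked by the size of the level difference among the 4472 accessions, Fxyd2 was 4th, Lepr 27th, Rabep1 31st, Gnai1 77th, Vcam1 111th and Bcl2 116th. The places of Rabep1, Gnai1, Bcl2 and in part Lepr rest on channels not above background. The groups did not overlap for 2 of the 6 members, Lepr and Bcl2, where 0.872% of all accessions were lower in every LOAD rat. No member was higher in every LOAD rat, where 0.268% of all accessions were, or higher in all 10 LOAD tibiae, where 0.0447% were. Since these values chose the genes, nothing is read from the counts. By limma with Benjamini-Hochberg adjustment, 0 of the 4472 accessions (0%) met the 20% limit on false discoveries between LOAD and SHAM rats (lowest adjusted p = 0.487). An unadjusted p under 0.05 was found for 236 (5.28%), of which 160 (3.58%) were lower and 76 (1.7%) higher in LOAD. When the arrays were scaled to equal medians only, without equalizing the spread of intensities, there were 90 lower and 326 higher, and with no scaling between arrays 96 lower and 22 higher. Without any scaling the median of all accessions was itself -0.27, and relative to it Lepr differed by -1.14, Vcam1 by -0.73, Gnai1 by -0.62, Bcl2 by -0.54, Fxyd2 by 1.62 and Rabep1 by 1.20.

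The difference was present in the tibiae that had not been treated. Between control tibiae alone it was -1.29 (SE 0.31) for Lepr, -0.80 (SE 0.21) for Vcam1, -0.86 (SE 0.24) for Gnai1, -0.68 (SE 0.19) for Bcl2, 1.78 (SE 0.50) for Fxyd2 and 1.00 (SE 0.30) for Rabep1. Between treated tibiae it was -0.96, -0.65, -0.70, -0.75, 1.59 and 0.97 in the same order. Control and treated tibiae thus differed between the groups in the same direction for all 6 genes. A choice by the level over both tibiae and a small ratio leads to this, so nothing is read from it. Lepr and Gnai1 did not overlap between control tibiae, as did 0.671% of all accessions in the lower direction, and Lepr and Bcl2 did not between treated tibiae, as did 0.447%. For Gnai1 the control tibiae were barely apart, at 6.945 in LOAD 3 and 6.946 in SHAM 5. Its control channels of the other LOAD rats were not above background. Over all accessions, 0 of 4472 met the same limit between control tibiae in limma (lowest adjusted p = 0.430), and 234 (5.23%) had an unadjusted p under 0.05. With the scan batch, read from date codes in the image names and shared by same-numbered arrays, as a block 3 passed. With the replicate number as a block 17 passed.

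Within rats the mean ratio between the tibiae was small beside the difference between groups, but in absolute size it was above that of the median accession for 4 of the 6 members. The mean absolute log2 ratio over the 10 rats was 0.25 for Lepr, 0.24 for Gnai1, 0.20 for Fxyd2, 0.18 for Bcl2, 0.16 for Rabep1 and 0.15 for Vcam1, against a median of 0.18 and an upper quartile of 0.24 over all accessions. The log2 ratio of right to left was 0.17 ± 0.30 in LOAD and -0.17 ± 0.30 in SHAM for Lepr, and 0.10 ± 0.14 and -0.05 ± 0.18 for Vcam1 (SD, n = 5 each). It was 0.16 ± 0.28 and -0.0029 ± 0.27 for Gnai1, and -0.08 ± 0.26 and -0.0067 ± 0.20 for Bcl2. For Fxyd2 it was -0.20 ± 0.22 and -0.01 ± 0.29, and for Rabep1 0.06 ± 0.28 and 0.09 ± 0.08. Of these group means, that of Rabep1 in SHAM was the only one larger than its SD. The largest single ratio was that of Lepr in SHAM 2, -0.62, in which the left tibia was the higher. Over all accessions 0 of 4707 met the limit for the difference in ratio in limma, and 70 (1.49%) had an unadjusted p under 0.05.

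**Figure D2:**
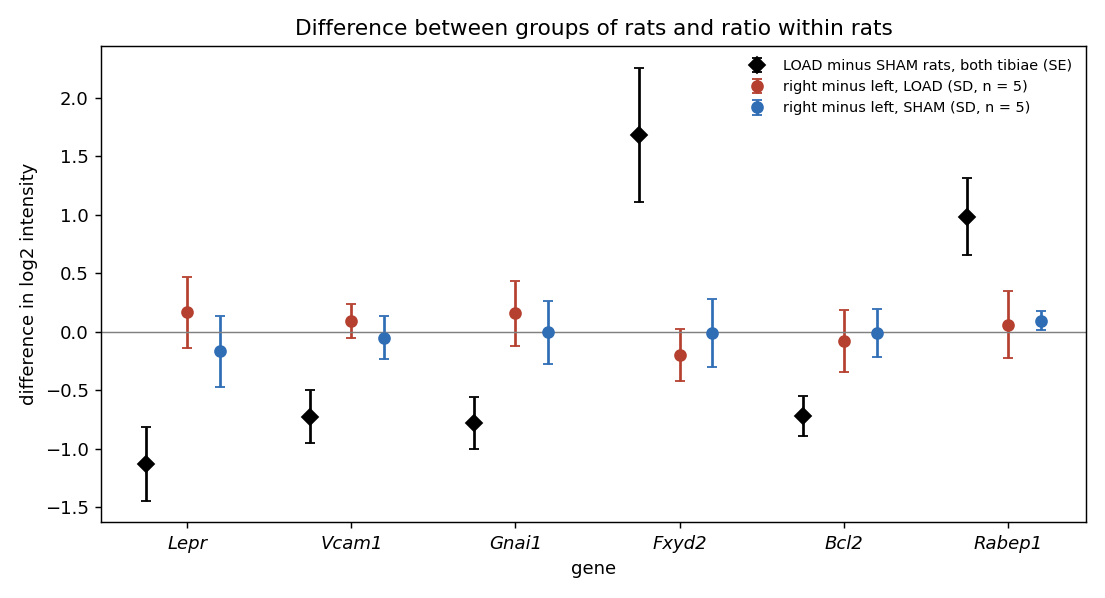
Difference in log2 intensity (vertical axis) for each gene: LOAD minus SHAM rats over both tibiae (black, with SE), and the mean ratio of right to left tibia in LOAD (red) and SHAM (blue), with SD over 5 rats. The black points lie between -1.13 and 1.68 and the ratios between -0.20 and 0.17.

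Right and left tibiae followed each other across the 10 rats with Pearson's r of 0.93 for Lepr, 0.95 for Vcam1, 0.88 for Gnai1, 0.88 for Bcl2, 0.98 for Fxyd2 and 0.97 for Rabep1. After removal of the group means r was 0.87, 0.92, 0.78, 0.64, 0.97 and 0.94 in the same order. A high r is what most spots on these arrays showed: its median over the 4472 accessions was 0.78 across rats and 0.77 within groups, and both tibiae of a rat share an array and a spot. Within groups the SD of the rat level was 4.26 times the SD of the ratio for Fxyd2, 2.92 times for Rabep1, 2.34 for Vcam1, 1.91 for Lepr, 1.35 for Gnai1 and 1.06 for Bcl2, against a median of 1.30. Fxyd2, Rabep1, Vcam1 and Lepr therefore varied more between rats of the same treatment, relative to the tibiae of a rat, than the median accession did, and Gnai1 and Bcl2 about as much or less. A small ratio was part of the choice of these genes and Rabep1 was above background in no channel, so this is a description.

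The names of the array images carry date codes, and arrays that share a code are called a scan batch here. What the code dates is not known. The 4 batches held replicates 1 and 2, then replicate 3, replicate 4 and replicate 5 of both groups. Within these batches the difference between LOAD and SHAM rats was -1.78, -0.17, -0.58 and -1.32 for Lepr, and -0.98, -0.64, -0.70 and -0.32 for Vcam1. It was -1.06, -0.65, -0.52 and -0.60 for Gnai1, and -0.67, -0.65, -0.66 and -0.94 for Bcl2. For Fxyd2 it was 2.65, 0.16, 2.75 and 0.20, and for Rabep1 0.32, 0.74, 1.495 and 2.06. Each member kept its direction in all 4 batches. The batches split the same arrays that chose the genes, so this is a description. Those of replicates 3, 4 and 5 held 1 array of each group. The size was most even for Bcl2, whereas for Fxyd2 it rested on the batches of LOAD 1, LOAD 2 and LOAD 4, and for Lepr it was small in the batch of LOAD 3.

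**Figure D3:**
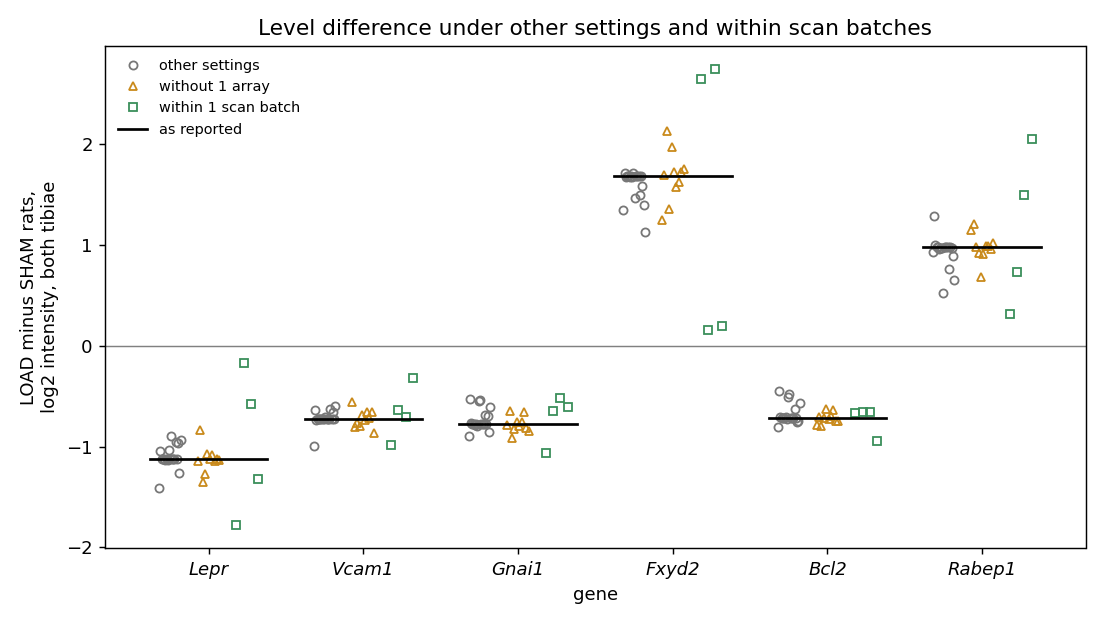
LOAD minus SHAM difference in log2 intensity over both tibiae (vertical axis) for each gene as reported (line), under other settings (grey circles), without 1 array (orange triangles) and within 1 scan batch (green squares). No value crosses 0, but all come from the arrays that chose the genes. The scan batches of Fxyd2 range from 0.16 to 2.75.

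The file headers carry tibia numbers, whose meaning is not given in the sources used here. On 8 arrays the numbers of the treated and control tibia are consecutive. LOAD 4 holds numbers 3 and 26 and SHAM 4 holds 25 and 4, so that consecutive numbers there lie on different arrays. For Fxyd2 the levels were 10.16 in number 3, 10.55 in 26, 7.43 in 25 and 7.78 in 4: the channels of an array differed by -0.39 and -0.35, and the consecutive numbers by 2.38 and -3.12. For Rabep1 the channels of an array differed by -0.31 and 0.05 and the consecutive numbers by 1.36 and -1.63. For both genes the channels of an array lay closer together than the consecutive numbers. So they did for Bcl2, with 0.10 and -0.09 against -0.66 and 0.66, and for Vcam1, with 0.12 and 0.22 against -0.53 and 0.87. For Gnai1 the differences were 0.42 and -0.32 against -0.47 and 0.57, and for Lepr 0.57 and -0.20 against -0.39 and 0.77, so that for Lepr 1 pair was closer by number. Over all 4472 accessions the median absolute difference was 0.21 and 0.15 within the arrays and 0.26 and 0.27 between consecutive numbers.

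Without LOAD 4 and SHAM 4 the level differences were -1.26 for Lepr, -0.73 for Vcam1, -0.86 for Gnai1, -0.74 for Bcl2, 1.40 for Fxyd2 and 0.89 for Rabep1. With the control tibiae of these arrays exchanged, so that numbers ran consecutively, they were -0.93, -0.59, -0.60, -0.57, 1.13 and 0.65. The difference between control tibiae then became -0.26 for Lepr, -0.36 for Vcam1, -0.03 for Gnai1, -0.10 for Bcl2, 0.49 for Fxyd2 and 0.10 for Rabep1, in a fit that weights comparisons within an array. In this fit the size of the difference between untreated tibiae therefore depends on the labels of this pair of arrays. The exchanged levels over both tibiae, given first, average treated and control tibiae without this fit. Between treated tibiae, which the exchange leaves in place, the difference was -0.96, -0.65, -0.70, -0.75, 1.59 and 0.97 in the same order. Plain means of the exchanged control tibiae thus keep more of the difference than the fit did, for every member. What in the fit lowers it was not tested.

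Among the members, Lepr and Gnai1 followed each other across the 10 rats with r = 0.91, Gnai1 and Bcl2 with r = 0.91 and Lepr and Bcl2 with r = 0.79. After removal of the group means these were 0.79, 0.75 and 0.47. Vcam1 and Fxyd2 did not follow those 3 within groups, with r of -0.06, 0.10 and -0.02 for Vcam1 and -0.14, -0.35 and -0.05 for Fxyd2 against Lepr, Gnai1 and Bcl2. For Rabep1 these were 0.26, 0.15 and -0.50. The genes share 10 rats and 10 arrays, and these correlations are descriptions.

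Among the 1075 other named genes, those most like Lepr were Cd38 (r = 0.92), an NAD-consuming ectoenzyme of leukocytes, Tgfbr3 (0.91), the TGF-beta co-receptor betaglycan, and Rab10 (0.91), a GTPase of vesicle transport. Those most like Gnai1 were again Cd38 (0.94) and Tgfbr3 (0.93), then Rasa1 (0.91), a Ras GTPase-activating protein. Cd38 and Tgfbr3 were lower in LOAD rats by -0.63 and -0.60 and were above background in 14 and 15 of 20 channels. Bcl2 was most like Lamp2 (0.95), a lysosomal membrane protein, Pde4d (0.92), a cAMP phosphodiesterase, and Gnai1 (0.91). The genes that ran most opposite were Slc23a2 for Lepr (-0.97), a vitamin C transporter, Ak4 for Gnai1 (-0.93), a mitochondrial adenylate kinase, and Cox8b for Bcl2 (-0.93), a cytochrome c oxidase subunit of muscle.

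Vcam1 was most like Slc6a4 (0.93), the serotonin transporter, Dgkg (0.87), a diacylglycerol kinase, and Phex (0.79), an endopeptidase of osteoblasts and osteocytes that governs phosphate handling, and ran most opposite to Dnm2 (-0.81), a dynamin of endocytosis. Fxyd2 was most like Aqp7 (0.91), a glycerol channel of fat cells, Aox1 (0.89), aldehyde oxidase, and Madcam1 (0.84), an adhesion molecule of mucosal venules, and most opposite to Ccr1 (-0.87), a chemokine receptor of myeloid cells. Aqp7, Aox1 and Dgkg were above background in only 7, 5 and 6 of 20 channels. Rabep1 was most like Rgs7 (0.83), which was above background in none, Rps6 (0.80), a ribosomal protein, and Eef2k (0.79), a kinase of translation elongation, and most opposite to Pcmt1 (-0.88), a protein repair methyltransferase.

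For the other genes of each member's pathway the median level difference between LOAD and SHAM rats ran from -0.18 to 0.02, against 0.0034 over all accessions. In each of the 6 pathways 0 genes met the 20% limit in limma, in either direction. Of 9 other genes of leptin receptor and JAK-STAT signalling, 6 were lower and 3 higher in LOAD rats, with a median of -0.06. Stat3, the transcription factor that Lepr activates, differed by -0.07, Ptpn11, a phosphatase that docks on the receptor, by -0.27 and Epor, the erythropoietin receptor, by -0.21. Ptpn11 and Epor were above background in only 11 and 4 of 20 channels. The ligand leptin (Lep), named after its value was seen, differed by 0.0082. No gene of this pathway had an unadjusted p under 0.05.

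Of 7 other leukocyte adhesion molecules and integrins, 6 were lower in LOAD rats, with a median of -0.18. Itgb1, which encodes the beta chain of the VLA-4 integrin that binds Vcam1, had a level of 10.16 ± 0.18 in LOAD and 10.61 ± 0.26 in SHAM (SD, n = 5), a difference of -0.45 (SE 0.16, unadjusted p = 0.0151, adjusted p = 0.815 in limma). Icam1, another ligand of leukocyte integrins, differed by -0.10 but was above background in only 4 of 20 channels. Of 11 other G proteins, adenylyl cyclases and RGS proteins, 6 were lower and 5 higher, with a median of -0.02. Gnai3, the closely related inhibitory subunit, differed by -0.08, while Gnas, the stimulatory alpha subunit, differed by -0.37 and Adcy8, an adenylyl cyclase, by -0.43. None of these 11 had an unadjusted p under 0.05.

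Of 7 other Na,K-ATPase and related genes 5 were higher, with a median of 0.02. The beta subunits Atp1b1, Atp1b2 and Atp1b3 differed by 0.04, 0.00042 and -0.42. Of 5 other genes of the BCL2 family and caspases 3 were lower, with a median of -0.0035. Bax, which opposes Bcl2 at the mitochondrion, differed by -0.38. Of 10 other Rab GTPases and endosomal genes, 8 were lower, with a median of -0.16, opposite in sign to Rabep1. Gdi2, which extracts Rab proteins from membranes, differed by -0.47 (unadjusted p = 0.0082, adjusted p = 0.815 in limma). Rab4a and Rab4b, of the Rab4 group that rabaptin-5 binds, differed by -0.17 and -0.24.

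**Figure D4:**
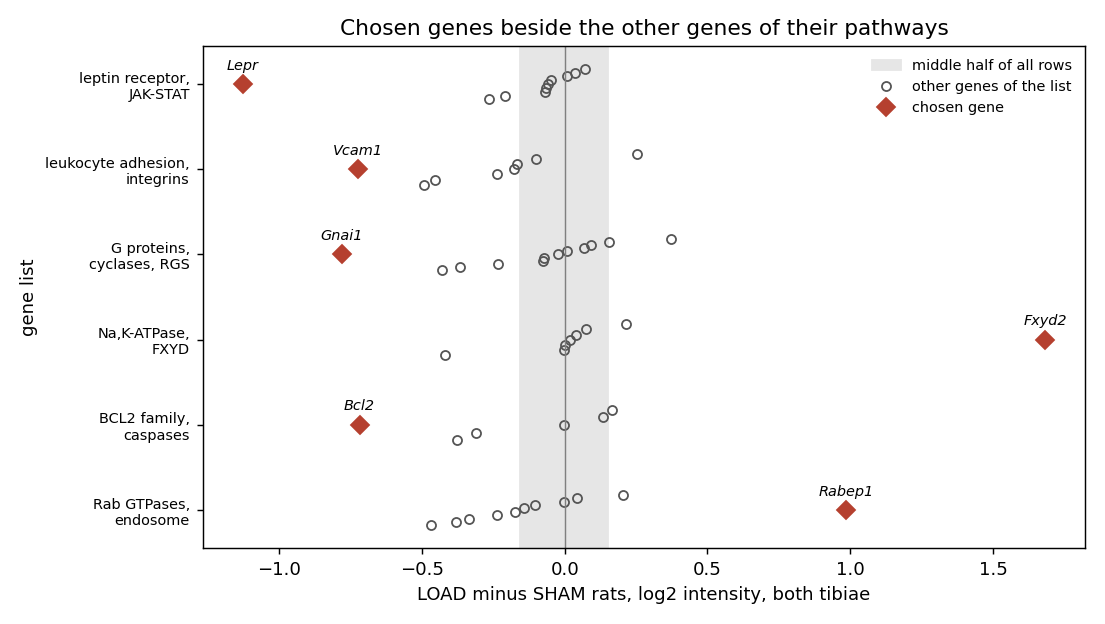
LOAD minus SHAM difference in log2 intensity over both tibiae (horizontal axis) for the chosen gene (red diamond) and the other genes of its pathway (open circles). The grey band runs from the lower to the upper quartile of all accessions, and the medians of the other genes run from -0.18 to 0.02.

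The study's methods state that the bone ends, periosteum and marrow were taken off before the shafts were frozen, and marker genes of marrow cells were still measured. Bone genes were present: Sparc, osteonectin, had a level of 13.98 ± 0.34 in LOAD and 14.23 ± 0.35 in SHAM, and Spp1, osteopontin, which was named after its values were seen, 12.19 ± 0.65 and 12.22 ± 0.32 (SD, n = 5). In none of the 10 marker lists did a gene meet the 20% limit in limma. Of 7 bone matrix, osteoblast and osteocyte genes 6 were lower in LOAD rats, with a median of -0.16, among them Phex by -0.77 (SE 0.16, unadjusted p = 0.00035, adjusted p = 0.773 in limma). The mean level of this list was 10.16 to 10.63 in LOAD rats and 10.37 to 11.04 in SHAM rats.

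All 4 myeloid and osteoclast genes were lower, with a median of -0.35 and a mean level of 9.82 to 10.47 in LOAD and 10.26 to 10.64 in SHAM rats, and so were all 4 erythroid genes, with a median of -0.17 and mean levels of 9.57 to 10.41 and 9.83 to 10.70. Ccr1 differed by -0.66 (unadjusted p = 0.0211, adjusted p = 0.815 in limma). Of 12 skeletal muscle genes 11 were higher over both tibiae, with a median of 0.22 and mean levels of 8.57 to 9.52 in LOAD and 8.64 to 9.11 in SHAM rats. Tnni1, the slow troponin I, differed by 0.26 and Myog, myogenin, by 0.34, while Car3, a carbonic anhydrase of slow fibers and fat, was the one lower gene, at -0.41. Myog was above background in 2 of 20 channels. Mstn, named after its value was seen, had the largest difference of the list, 0.73, and was above background in 0 channels. Ckm, the muscle creatine kinase, named after its values were seen, differed by 0.32 over both tibiae and by 1.12 between control tibiae. Its mean log2 ratio of right to left was -1.38 in LOAD and 0.22 in SHAM. In LOAD this ratio was -1.67 for Myl11, -0.66 for Eno3, -0.63 for Capn3, -0.43 for Tnni2 and -0.36 for Cacng1. Their differences between control tibiae were 1.37, 0.56, 0.57, 0.32 and 0.15, and over both tibiae 0.44, 0.22, 0.23, 0.11 and 0.0066. These genes were named after their values were seen. For them and Ckm the higher level in LOAD rats thus lay in the control tibiae. The LOAD ratio was positive for Myog, Mstn and Myl3. Lepr and Vcam1 also belong to the marrow stroma list, whose other measured genes Ngfr and Nes differed by 0.27 and 0.08 but were above background in only 3 and 2 of 20 channels, with mean levels of 6.17 to 7.20 in LOAD and 6.30 to 6.74 in SHAM rats. The medians of the other lists were -0.0005 for 6 adipocyte, 0.06 for 3 endothelial, -0.02 for 6 lymphoid, -0.05 for 4 cartilage and 0.0042 for 7 peripheral nerve genes. The part of tissue composition in the level of any member was not tested.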

How the data were processed

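RNA of both tibiae of 10 rats was measured on 10 arrays of spotted oligonucleotides with a pair of dyes. The authors quantified the spots with BlueFuse, and the deposited files give an intensity per channel and accession, not normalized, with duplicate spots combined. As the authors' software wrote them, the deposited files also hold a spot confidence and a signal probability, each a fraction. The deposited matrix of log2 ratios equals the log2 ratio of these intensities and was not used for results. Groups and dyes came from the labels.

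Values of spots whose confidence was below 0.11 were treated as missing. Ratios were normalized within arrays by loess (span 0.3, 4 iterations) and levels between arrays by Aquantile in limma 3.58.1 under R 4.3.3. Levels over both tibiae were compared by a linear model of the array means and control tibiae by limma's single channel analysis (intraspot correlation 0.74), over 4472 accessions with a value on every array. Ratios were compared over 4707 accessions with at most 1 missing value. P-values were adjusted by Benjamini-Hochberg over all accessions, at a false discovery rate of 20%. With 5 arrays in each group, their number limits the precision. Gene names came from RefSeq accessions. The fits, without the normalization steps, were tested on simulated data, the ratio fit only with no difference between groups.

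The 6 genes, the 6 pathway lists and the 10 marker lists were chosen with earlier results of these data known. Named were all members, up to 4 genes of each pathway list by p and their close relatives, the 3 named genes most like each member and the least like one, and up to 3 of each marker list. Some genes that this rule names are not reported here.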

Additional observations from a re-analysis of the deposited data

Results flagged for a closer look

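Lepr in SHAM 2, at 8.63 over both tibiae, stood apart from the other 4 SHAM rats, of which the nearest was at 8.44. The left tibia of SHAM 2 had 8.94 and the right 8.32. It was the only one of 24 groups of 5 values with such a gap, and chance gives about 1 in 20.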

How the results depend on the processing

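Each of the 6 members kept the direction of its level difference over both tibiae under every alternative that gave it a value, 28 for each and 27 for Rabep1, which a filter on dim accessions removed. The alternatives reuse the arrays that chose the genes, so a kept direction is a description. The values ran from -1.41 to -0.83 for Lepr, -0.996 to -0.56 for Vcam1, -0.92 to -0.53 for Gnai1, -0.81 to -0.44 for Bcl2, 1.13 to 2.14 for Fxyd2 and 0.53 to 1.29 for Rabep1. Bcl2 was at -0.44 with equal array medians and Rabep1 at 0.53 with an offset of 50 added to the intensities, and the cause was not tested. The alternatives that exchange or leave out the fourth arrays were chosen after the data were seen.

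Against 0 accessions as reported, those past a false discovery rate of 20% over both tibiae numbered 3 with no normalization between arrays, and 0 to 2 when 1 array was left out, with the 2 without LOAD replicate 3. Between control tibiae they numbered 3 with equal array medians, 3 with the scan batch as a block, 3 with the control tibiae of LOAD 4 and SHAM 4 exchanged, 17 with the replicate block (14 lower and 3 higher in LOAD), and 0 to 8 when 1 array was left out, with the 8 without LOAD replicate 3. For the ratio they numbered 2 with no normalization within arrays, and 0 when any 1 array was left out. Accessions with an unadjusted p under 0.05 numbered 97 to 417 over both tibiae (236 as reported), 36 to 426 between control tibiae (234) and 9 to 179 for the ratio (70). Same-numbered rats share a scan batch, which for replicates 1 and 2 is the same one, and the labels pair them in no other way. The level deviations of same-numbered rats from their group means correlated with r of 0.10, 0.07, 0.19, 0.24 and -0.10. Among SHAM rats the same-numbered one was the best match for LOAD 2, LOAD 3 and LOAD 4, and not for LOAD 1 and LOAD 5. For the ratio r was -0.20, -0.26, 0.07, -0.41 and -0.29, and the same-numbered rat was never the best match. The cause of the changes in these counts was not tested. Signal over background limits Rabep1 in all rats, and Gnai1, Bcl2 and Lepr in LOAD rats.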
